A study of Homo sapiens with 9 samples.

Results

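Rab GTPases are the largest branch of the Ras superfamily of small GTP-binding proteins. They are described here at the mRNA level through every gene of the deposited count table whose symbol is RAB followed by a number and at most a letter and a digit. This rule took 63 of the 19569 genes in the table, and 46 of the 63 had enough counts to be tested. The cells were Jurkat Clone E6-1, an established human leukaemic T-cell line, sequenced as 9 mRNA libraries in 3 groups of 3. They were left non-activated (0 h) or were activated for 5 h or 12 h on anti-CD3 antibody coated at 10 µg/mL with anti-CD28 antibody at 5 µg/mL. A clonal leukaemic line stands in for T cells here, and no non-activated cells kept for 5 or 12 h are among the libraries, so activation and time in culture cannot be told apart. Nothing in the labels ties the 3 libraries of a group to separate cultures. Each p-value therefore reflects the variation among the libraries at hand, possibly a technical one.

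A Rab protein cycles between an active, GTP-bound form on a membrane and an inactive, GDP-bound form. Guanine-nucleotide exchange factors (GEFs) switch it on, GTPase-activating proteins (GAPs), most of them with a TBC domain, switch it off, and effectors such as tethers and motor adaptors read the active form. Each Rab marks its own compartment, and in T cells Rab proteins are known for recycling the T-cell receptor to the contact with an antigen-presenting cell and for docking secretory granules there.

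Library totals ran from 4222258 to 9359187 counts, with replicate 1 at 12 h the shallowest, and the labels give no batch. Levels are given as CPM, counts scaled to a common library size with edgeR's TMM factors, and values per library are listed in the order of replicates 1, 2 and 3. All 10 T-cell markers were tested, and their summed level was 5496 to 6336 CPM at 12 h, 5660 to 6538 CPM at 5 h and 5563 to 6503 CPM at 0 h. Single markers moved in both directions within this sum. Against 0 h, CD3G (log2 fold change -1.07 at 5 h and -1.14 at 12 h) and CD7 (-1.08 and -1.61) were lower. CD5 (1.62 and 1.40) and CD28 (0.66 and 0.47) were higher, and CD3E was lower at 5 h (-0.35). The epithelial markers EPCAM and KRT19 had no count, the summed myeloid markers stayed at or below 2.86 CPM, and of the 4 B-cell markers only CD79A, a subunit of the B-cell receptor, was tested. CD79A averaged 142 ± 12.5 CPM at 12 h and 101 ± 15.8 CPM at 5 h, against 177 ± 22.4 CPM at 0 h (SD, n = 3 each), and was lower at 5 h (log2 fold change -0.80, adjusted p = 5.79e-06) and at 12 h (-0.31, adjusted p = 0.0231) than at 0 h and higher at 12 h than at 5 h (0.49, adjusted p = 0.00233). The part of B-cell markers in the Rab results was not tested. The activation markers IL2RA, CD69, EGR1 and NR4A1 summed to 1257 to 1366 CPM at 12 h and 3751 to 3877 CPM at 5 h, against 87.2 to 102 CPM at 0 h.

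The Rab family held about the same part of the mRNA throughout. Together its 63 genes made up 0.232% ± 0.012 of each 0 h library on average, 0.225% ± 0.002 of each 5 h library and 0.230% ± 0.014 of each 12 h library (SD, n = 3 each), and the groups overlapped. Within the family 33 of the 46 tested genes differed in at least 1 comparison and 13 in none, beside 70.9% of all tested genes that differed in at least 1. A gene is said to have changed where edgeR's quasi-likelihood test, fitted on all 9 libraries and adjusted over the 12036 genes tested by Benjamini-Hochberg, gave an adjusted p under 0.05. The plot of the tested genes by library shows these changes grouped by compartment.

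**Figure D1:**
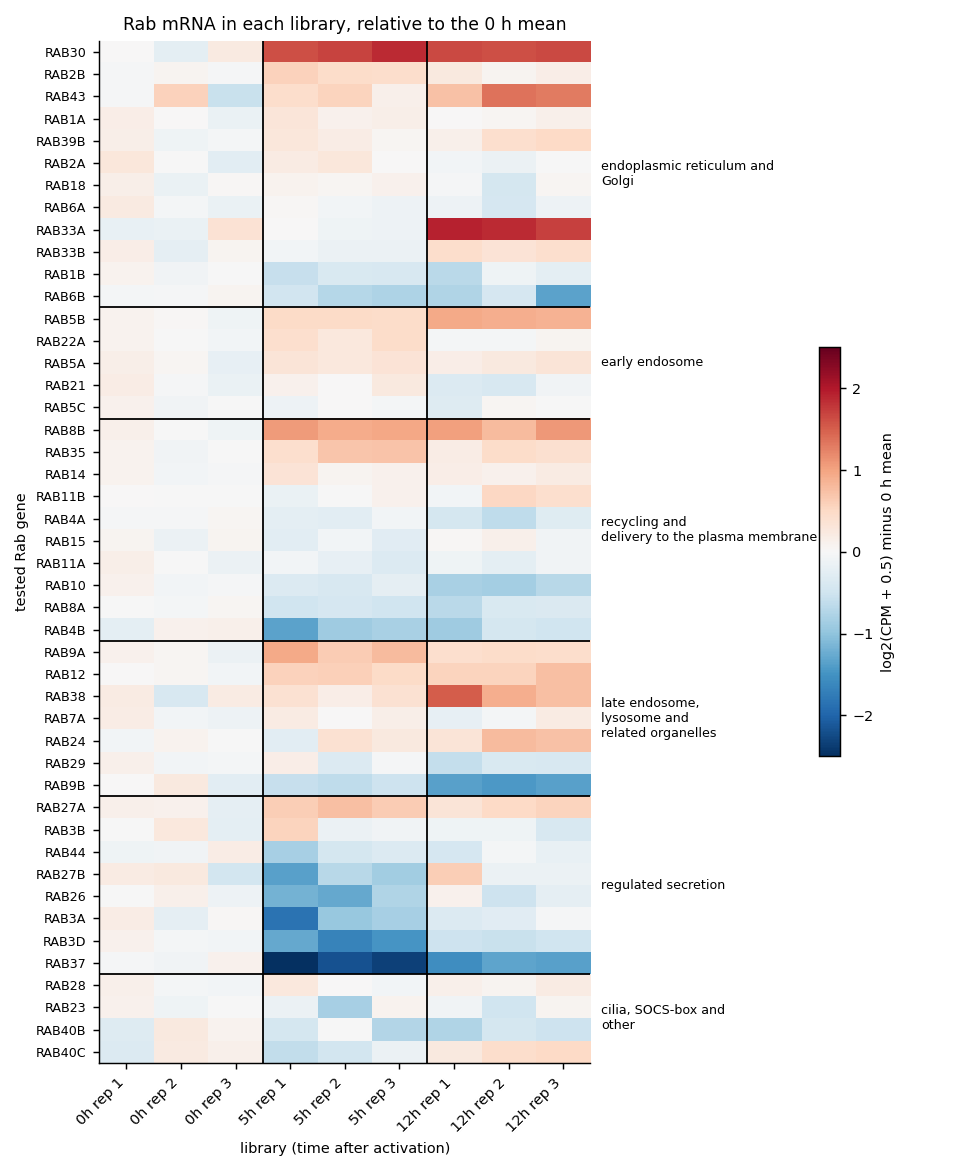
Heat map of the 46 tested Rab genes (rows, grouped by compartment) in the 9 libraries (columns, 0 h to 12 h). Colour is log2(CPM + 0.5) minus the mean of the 3 libraries at 0 h, red for higher and blue for lower. The regulated-secretion block is mostly blue at 5 h and paler at 12 h, RAB30 and RAB8B are red at both times, and RAB33A is red at 12 h.

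At 5 h against 0 h, the early response, 10 Rab genes were higher and 13 lower, which is 50% of those tested; of all 12036 genes tested, 49.7% changed, 24.9% being higher and 24.8% lower. The family as a whole was therefore near the background. At 12 h against 0 h, the later response, 15 were higher and 11 lower (56.5%), beside 51.1% of all genes, 26.3% higher and 24.8% lower. In the transition from 5 h to 12 h, 13 were higher and 6 lower at 12 h (41.3%), beside 36.1% of all genes, 18.1% higher and 18% lower. Without replicate 1 at 5 h, 8 in place of 13 were higher. Upper-quartile scaling in place of the trimmed mean of M-values gave 9 Rab genes higher and 15 lower at 5 h. Beside these, 2412 of all genes were higher and 3622 lower (3001 and 2984 as reported). At 12 h against 0 h the same scaling gave 11 Rab genes higher and 12 lower. Of all genes, 2745 were then higher and 3547 lower (3160 and 2985 as reported). The median log2 fold change of the tested Rab genes was -0.04 at 5 h and -0.01 at 12 h against 0 h, beside 0.00 for all tested genes. The 5 h and 12 h comparisons share the 0 h libraries, so they are not independent of each other. In bulk RNA, fewer cells with an mRNA and less of it per cell cannot be told apart.

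The promoters of 5 members are printed here because they belong to genes that the results below turn on: RAB8A and RAB8B, and RAB27A and RAB27B, are close relatives that moved in opposite directions at 5 h, and RAB5B was higher at each step. The RefSeq table (GRCh38.p14) held a promoter for 50 of the 63 members, and 250 bases upstream of each listed start were read, 5′ to 3′ on the gene's strand. Capitals mark the AP-1 motif TGANTCA, the binding letters of FOS and JUN dimers that T-cell activation induces, and the GC box GGGCGG, each searched on both strands. The RAB8B window is chr15:63189356-63189605 (plus strand) and the RAB8A window is chr19:16111639-16111888 (plus strand). The windows shown for RAB27A, RAB27B and RAB5B, at chr15:55270400-55270649 (minus strand), chr18:54828227-54828476 (plus strand) and chr12:55973699-55973948 (plus strand), are those of the listed start that holds an AP-1 match. RAB27A has 5 listed starts, and RAB27B and RAB5B have 2 each. The RAB27A and RAB27B windows lie inside the annotated genes (chr15:55202966-55319113 and chr18:54717860-54895516), so they belong to internal starts. The RAB8A window also lies inside its annotated gene (chr19:16111629-16134234). The RAB8B and RAB5B windows run past the annotated starts of their genes (chr15:63189469 and chr12:55973913).
RAB8B: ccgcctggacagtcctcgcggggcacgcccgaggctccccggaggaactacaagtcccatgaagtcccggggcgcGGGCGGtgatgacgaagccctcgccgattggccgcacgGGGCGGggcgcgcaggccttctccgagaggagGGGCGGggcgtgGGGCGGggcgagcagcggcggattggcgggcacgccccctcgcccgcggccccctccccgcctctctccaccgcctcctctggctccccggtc
RAB8A: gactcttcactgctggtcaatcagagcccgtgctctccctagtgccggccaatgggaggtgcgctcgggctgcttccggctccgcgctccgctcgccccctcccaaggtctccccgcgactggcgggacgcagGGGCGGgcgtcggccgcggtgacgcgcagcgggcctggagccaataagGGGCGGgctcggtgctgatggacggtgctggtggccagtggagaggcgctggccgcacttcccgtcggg
RAB27A: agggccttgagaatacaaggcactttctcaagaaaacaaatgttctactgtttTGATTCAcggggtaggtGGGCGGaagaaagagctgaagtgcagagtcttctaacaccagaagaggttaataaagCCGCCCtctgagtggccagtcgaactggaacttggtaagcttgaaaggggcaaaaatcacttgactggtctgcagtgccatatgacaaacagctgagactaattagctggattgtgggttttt
RAB27B: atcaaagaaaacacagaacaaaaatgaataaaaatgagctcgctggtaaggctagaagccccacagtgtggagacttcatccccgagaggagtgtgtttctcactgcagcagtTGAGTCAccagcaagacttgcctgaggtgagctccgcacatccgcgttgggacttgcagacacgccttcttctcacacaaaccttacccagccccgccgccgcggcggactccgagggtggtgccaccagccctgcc
RAB5B: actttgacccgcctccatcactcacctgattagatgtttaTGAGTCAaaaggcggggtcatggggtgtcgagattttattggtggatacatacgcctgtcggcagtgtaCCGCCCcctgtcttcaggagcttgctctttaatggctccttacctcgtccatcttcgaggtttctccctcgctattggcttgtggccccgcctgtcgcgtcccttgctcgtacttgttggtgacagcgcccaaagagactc

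The RAB8B window held 4 GC boxes and 77.2% G or C, and the RAB8A window held 2 and 72.4%, with no AP-1 match in either. The RAB27A window held 1 AP-1 match and 2 GC boxes and was 45.6% G or C, and the RAB27B window held 1 AP-1 match and no GC box. Both were picked from several listed starts for the AP-1 match, so they do not stand for the other starts of these genes. Over all listed starts, 6 of the 50 members had an AP-1 match (12.0%), beside 7.09% of 15843 genes: RAB13, RAB27A, RAB27B, RAB34, RAB3B and RAB5B. A GC box stood before 41 members (82.0%), beside 62.1% of all genes. Of the other motifs searched on both strands, 7 members held the NF-kappaB consensus (14.0%, beside 14.3% of all genes), 5 held the E-box CACGTG (10.0%, beside 9.73%), 1 held the CRE TGACGTCA (2.0%, beside 2.73%), 27 held the NFAT core GGAAA (54.0%, beside 61.0%), and none held the EGR site GCGTGGGCG (beside 1.29%). Of the members with a promoter, an AP-1 match stood before 2 of the 9 that were higher at 5 h and 1 of the 10 that were lower. A match is a description of letters in these windows and not a binding site.

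The Rab genes of regulated secretion, which dock and prime granules and synaptic vesicles for release, had the highest share of changed genes at 5 h among the 6 groups by compartment (87.5%). Of the 8 tested, 6 were lower and 1 higher at 5 h than at 0 h, beside the 24.8% and 24.9% of all genes given above, and their median log2 fold change was -1.27. At 12 h 2 were lower and 1 higher than at 0 h (37.5% called, beside 51.1% of all genes), and 5 of the 8 were higher at 12 h than at 5 h (62.5%, beside 36.1%), with a median of 1.03. RAB26, RAB27B and RAB3A reached the level at which the filter on low counts takes a library (1.44 CPM before TMM scaling) in 0, 1 and 2 of the 5 h libraries and in all libraries at 0 h and 12 h, so these 3 passed through groups where they were higher than at 5 h. The counts above include these 3, and their tests against the 5 h group were not independent of that filter. The members are few and the role list was drawn up with earlier results of these data known. Without replicate 1 at 5 h the counts were 4 lower at 5 h and 2 higher at 12 h than at 5 h, and without replicate 1 or replicate 3 at 12 h 3 were higher at 12 h than at 5 h.

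RAB37 (chr17:74670578-74747335, plus strand, GRCh38, GENCODE 29), a Rab of secretory granules in mast cells and other immune cells, had the largest change of any member at 5 h. It stood at 43.6, 42.3 and 48.4 CPM at 0 h, 5.86, 9.46 and 8.46 CPM at 5 h and 14.9, 17.7 and 17.03 CPM at 12 h. Every library at 5 h lay below every library at 12 h, and these lay below every library at 0 h. The change was -2.49 ± 0.15 on the log2 scale (SE) at 5 h against 0 h (0.178-fold, adjusted p = 2.52e-11) and -1.42 ± 0.14 at 12 h against 0 h (adjusted p = 4.17e-08). Between the activated groups it was higher at 12 h than at 5 h by 1.07 ± 0.17 (adjusted p = 6.06e-05).

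RAB3D, a granule Rab of exocrine and mast cells, followed the same order at lower levels: 23.5, 20.9 and 20.6 CPM at 0 h, 8.57, 6.49 and 7.52 CPM at 5 h and 14.9, 14.6 and 15.1 CPM at 12 h. None of the groups overlapped. An opposite-strand gene, AC011472.3, shares 20.5% of the exon bases of RAB3D. RAB3D was lower at 5 h (log2 fold change -1.53 ± 0.15, adjusted p = 5.37e-08) and at 12 h (log2 fold change -0.55 ± 0.14, adjusted p = 0.00284) than at 0 h, and higher at 12 h than at 5 h (log2 fold change 0.98 ± 0.16, adjusted p = 9.64e-05).

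RAB3A, the main Rab of synaptic vesicles, was at 5.88, 4.34 and 5.25 CPM at 0 h, 1.05, 2.43 and 2.66 CPM at 5 h and 3.9, 4.14 and 5.03 CPM at 12 h. The 5 h libraries lay below all others, and the 12 h and 0 h libraries overlapped. It was lower at 5 h than at 0 h (log2 fold change -1.33 ± 0.31, adjusted p = 0.00154) and higher at 12 h than at 5 h (log2 fold change 1.09 ± 0.33, adjusted p = 0.0134), while 12 h against 0 h did not pass (log2 fold change -0.24 ± 0.28, adjusted p = 0.503). The call at 12 h against 5 h was lost without replicate 1 at 5 h (adjusted p = 0.0827) and without replicate 3 at 12 h (adjusted p = 0.0553). RAB3A reached the level of the filter on low counts in 2 of the 5 h libraries. Its tests against the 5 h group were therefore not independent of that filter.

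RAB26 and RAB27B rested on few counts. RAB26, a Rab of secretory granules, had 21, 20 and 20 counts at 0 h, 6, 6 and 9 at 5 h and 12, 16 and 15 at 12 h, which is 2.68, 2.99 and 2.44 CPM at 0 h, 0.902, 0.811 and 1.41 CPM at 5 h and 2.93, 1.74 and 2.22 CPM at 12 h. Its 5 h libraries were all below the others. It was lower at 5 h than at 0 h (log2 fold change -1.37 ± 0.38) and higher at 12 h than at 5 h (log2 fold change 1.08 ± 0.41). RAB26 passed the filter on low counts only through the 0 h and 12 h libraries, where it was higher, so no p is given for it. At 12 h against 5 h it was no longer called under 9 of the alternatives tried. Among these were DESeq2 and the fits without replicate 1 or 2 at 5 h, replicate 1 or 3 at 12 h, or replicate 2 or 3 at 0 h.

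RAB27B, which works with RAB27A in granule and exosome release, had 25, 22 and 15 counts at 0 h, 5, 11 and 8 at 5 h and 18, 22 and 16 at 12 h, which is 3.2, 3.29 and 1.83 CPM at 0 h, 0.752, 1.49 and 1.25 CPM at 5 h and 4.39, 2.4 and 2.37 CPM at 12 h. The libraries at 5 h lay below all 6 others. It was lower at 5 h than at 0 h (log2 fold change -1.22 ± 0.41) and higher at 12 h than at 5 h (log2 fold change 1.29 ± 0.42). RAB27B reached the filter level in 1 of the 5 h libraries and in all libraries at 0 h and 12 h. It thus passed through groups where it was higher, so no p is given for it. The call at 5 h against 0 h was lost without replicate 1 or 2 at 0 h or replicate 1 at 5 h. The call at 12 h against 5 h was lost without replicate 1 at 5 h or replicate 1 at 12 h.

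RAB27A, which brings cytotoxic granules to the plasma membrane and whose loss causes Griscelli syndrome, was the only secretory Rab gene called higher at 5 h. It was at 24.8, 24.4 and 19.3 CPM at 0 h, 35.03, 38.7 and 35.7 CPM at 5 h and 28.6, 32.3 and 33.8 CPM at 12 h, with every activated library above every library at 0 h. The change was 0.68 ± 0.12 at 5 h (adjusted p = 0.000127) and 0.48 ± 0.13 at 12 h (adjusted p = 0.00347), both against 0 h. RAB44, a large Rab with calcium-binding EF-hands, averaged 12.9 ± 2.35 CPM at 5 h and 18.8 ± 2.15 CPM at 0 h (SD, n = 3 each; log2 fold change -0.55 ± 0.16, adjusted p = 0.00769). Without replicate 3 at 0 h or replicate 1 at 5 h its adjusted p was 0.0504 to 0.0513. RAB3B did not pass in any comparison (log2 fold change 0.15 at 5 h and -0.22 at 12 h), and RAB3C had no count in any library.

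**Figure D2:**
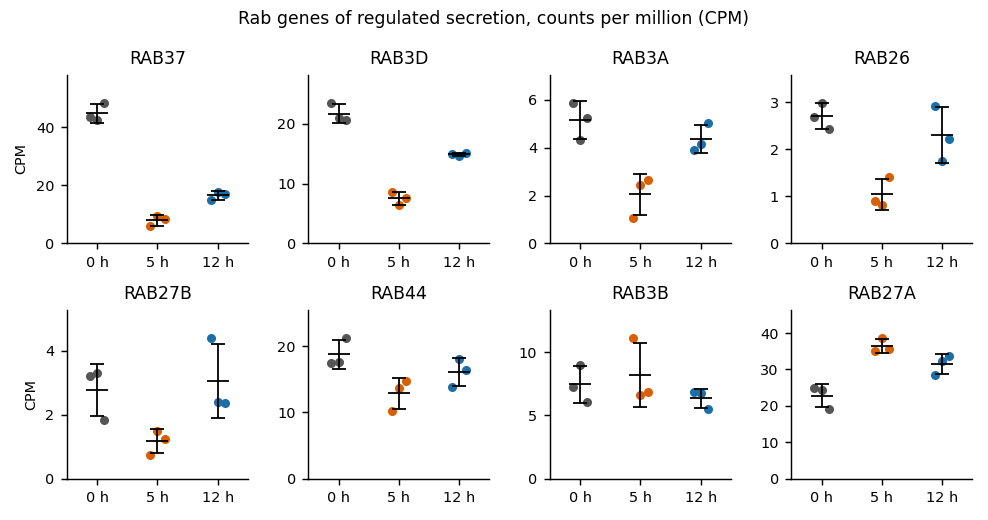
CPM of the 8 tested Rab genes of regulated secretion at 0, 5 and 12 h; points are libraries, the long bar is the mean and the whiskers are the SD (n = 3). RAB37 averaged 44.8 ± 3.23, 7.93 ± 1.86 and 16.5 ± 1.46 CPM in time order, while RAB27A was highest at 5 h.

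Among the Rab genes of recycling and delivery to the plasma membrane, 10 were tested. At 5 h 2 were higher and 3 lower than at 0 h, and at 12 h 3 were higher and 4 lower (50% and 70% called, beside 49.7% and 51.1% of all genes). RAB8B and RAB8A, which carry cargo from the Golgi and recycling endosomes to the cell surface, had coding sequences identical at 76.4% of aligned bases and moved apart. RAB8B, the member with the highest mean CPM, was at 138, 124 and 116 CPM at 0 h, 264, 238 and 244 CPM at 5 h and 255, 218 and 265 CPM at 12 h. Both activated groups lay above all libraries at 0 h and overlapped each other. RAB8B was 1.98-fold higher at 5 h (log2 fold change 0.98 ± 0.10, adjusted p = 4.04e-08) and 1.96-fold higher at 12 h (log2 fold change 0.97 ± 0.10, adjusted p = 5.9e-08) than at 0 h.

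RAB8A was at 111, 109.9 and 118 CPM at 0 h, 79.4, 84.7 and 79.9 CPM at 5 h and 70.8, 87.01 and 87.96 CPM at 12 h, and here both activated groups lay below all libraries at 0 h. RAB8A was lower at 5 h (log2 fold change -0.47 ± 0.09, adjusted p = 0.000289) and at 12 h (log2 fold change -0.45 ± 0.09, adjusted p = 0.000433) than at 0 h. RAB8B therefore made up 55.2, 52.9 and 49.6% of the summed CPM of the 2 genes at 0 h, 76.9, 73.7 and 75.3% at 5 h and 78.3, 71.5 and 75.1% at 12 h. An antisense gene covers 37.8% of the exon bases of RAB8A, and the use of strand in counting is not given in the sources used here, so its reads cannot be told apart from those of RAB8A.

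RAB10, which moves GLUT4 vesicles and other cargo to the plasma membrane, fell at each step. It was at 154, 136 and 139 CPM at 0 h, 112, 109 and 122 CPM at 5 h and 81.02, 79.5 and 88.5 CPM at 12 h, and no 2 groups overlapped. The change was -0.33 ± 0.09 at 5 h (adjusted p = 0.00447) and -0.79 ± 0.09 at 12 h (adjusted p = 4.55e-07) against 0 h, and -0.46 ± 0.09 at 12 h against 5 h (adjusted p = 0.000612). Among all members, the coding sequence nearest to that of RAB10 was RAB8B, identical at 67.4% of aligned bases.

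RAB4B, of the fast recycling route, was at 21.9, 27.95 and 28.2 CPM at 0 h, 9.92, 13.6 and 14.6 CPM at 5 h and 13.7, 18.97 and 18.2 CPM at 12 h, with the activated groups below 0 h. RAB4B was lower at 5 h (log2 fold change -1.03 ± 0.16, adjusted p = 2.77e-05) and at 12 h (log2 fold change -0.59 ± 0.16, adjusted p = 0.00426) than at 0 h. Readthrough genes with MIA and EGLN2 share 25.7% and 27.4% of its exon bases, so these counts are uncertain. EGLN2 itself averaged 31.3 ± 7.97 CPM at 5 h, against 41.8 ± 3.85 CPM at 0 h (SD, n = 3 each; log2 fold change -0.42). RAB35, which returns the T-cell receptor and other cargo to the surface, was higher at 5 h (85.7 ± 9.43 CPM) and 12 h (71.2 ± 7.31 CPM) than at 0 h (55.7 ± 3.39 CPM; log2 fold change 0.62, adjusted p = 5.33e-05 and 0.36, adjusted p = 0.0073). RAB4A, which shares 19.6% of its exon bases with SPHAR on the same strand, was lower at 12 h than at 0 h (-0.47, adjusted p = 0.00505), and for RAB11A, the Rab of the slow recycling endosome, no comparison passed. RAB11A did pass at 5 h against 0 h without replicate 3 at 0 h or replicate 1 at 5 h (adjusted p 0.0366 to 0.0417) and with upper-quartile scaling (adjusted p = 0.0149). At 12 h against 5 h RAB4B (adjusted p = 0.0507) and RAB35 (adjusted p = 0.0585) did not pass. RAB4B passed without replicate 1 at 0 h, replicate 3 at 5 h or replicate 1 at 12 h (adjusted p 0.0189 to 0.0425). It also passed with RLE or upper-quartile scaling, with no filter on low counts and with a replicate block (adjusted p 0.0259 to 0.0489). RAB35 passed without replicate 1 at 5 h or replicate 2 at 12 h (adjusted p 0.0208 to 0.049).

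RAB11B was higher at 12 h than at 0 h (log2 fold change 0.33 ± 0.12, adjusted p = 0.0239) although its groups overlapped, with 92.002, 138 and 129 CPM at 12 h against 97.4, 96.1 and 95.02 CPM at 0 h. Replicate 1 at 12 h lay below all libraries at 0 h and the other two lay above. Without replicate 2 or 3 of either group the adjusted p was 0.0553 to 0.158, and with upper-quartile scaling it was 0.0642. RAB14 and RAB15 did not pass in any comparison, although upper-quartile scaling put RAB15 past the threshold at 5 h (adjusted p = 0.0248).

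**Figure D3:**
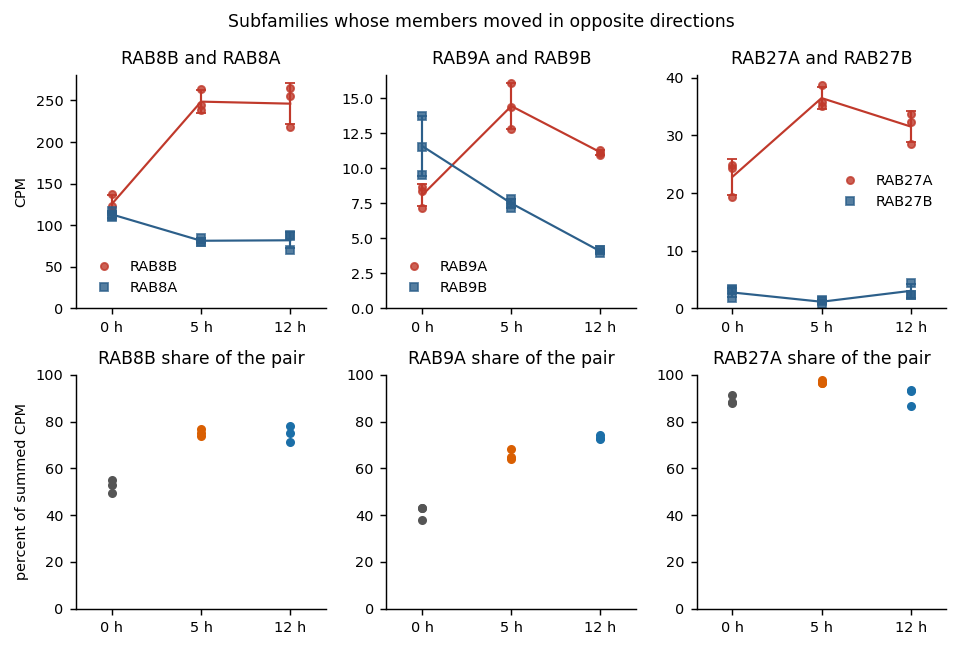
Upper row, CPM of RAB8B and RAB8A, RAB9A and RAB9B, and RAB27A and RAB27B at 0, 5 and 12 h; points are libraries, lines join the means and whiskers are the SD (n = 3). Lower row, the share of RAB8B, RAB9A and RAB27A in the summed CPM of its pair, which was 52.6% ± 2.86, 75.3% ± 1.56 and 74.9% ± 3.41 for RAB8B in time order.

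On the late endosome and lysosome, 7 Rab genes were tested. At 5 h 2 were higher and 1 lower than at 0 h, and at 12 h 4 were higher and 2 lower (42.9% and 85.7% called, beside 49.7% and 51.1% of all genes). RAB7A, which drives fusion of late endosomes with lysosomes, had the highest level per length of the family, at 67.1 CPM per kb of exon. It was at 201, 169.7 and 162 CPM at 0 h, 204, 179 and 197 CPM at 5 h and 153, 171 and 203 CPM at 12 h; the 3 groups overlapped and no comparison passed (log2 fold change 0.12 at 5 h and -0.01 at 12 h).

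RAB9A and RAB9B, of the route that returns mannose 6-phosphate receptors from late endosomes to the Golgi, moved in opposite directions. RAB9A was at 8.69, 8.37 and 7.2 CPM at 0 h, 16.1, 12.8 and 14.4 CPM at 5 h and 10.98, 11.3 and 11.1 CPM at 12 h, with both activated groups above 0 h. It was higher at 5 h (log2 fold change 0.84 ± 0.16, adjusted p = 0.000272) and at 12 h (log2 fold change 0.47 ± 0.17, adjusted p = 0.027) than at 0 h. The call at 12 h was lost with DESeq2 (adjusted p = 0.0648), with upper-quartile scaling (adjusted p = 0.0534), and without replicate 3 at 0 h or replicate 2 or 3 at 12 h (adjusted p 0.0541 to 0.103).

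RAB9B was at 11.5, 13.8 and 9.51 CPM at 0 h, 7.52, 7.16 and 7.83 CPM at 5 h and 4.15, 3.93 and 4.15 CPM at 12 h, and no 2 groups overlapped. It was lower at 5 h (log2 fold change -0.62 ± 0.19, adjusted p = 0.00979) and at 12 h (log2 fold change -1.50 ± 0.21, adjusted p = 5.24e-06) than at 0 h, and lower at 12 h than at 5 h (log2 fold change -0.88 ± 0.22, adjusted p = 0.00413). Without replicate 2 at 0 h the adjusted p at 5 h was 0.065. The share of RAB9A in the summed CPM of the 2 genes was 43.04, 37.8 and 43.1% at 0 h, 68.2, 64.2 and 64.8% at 5 h and 72.6, 74.3 and 72.8% at 12 h. Both genes lie on chromosome X, and their coding sequences are identical at 71.6% of aligned bases.

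RAB38, a Rab of melanosomes and other lysosome-related organelles, was at 9.59, 6.13 and 9.64 CPM at 0 h, 10.98, 9.33 and 10.97 CPM at 5 h and 24.6, 15.9 and 14.2 CPM at 12 h. All 12 h libraries lay above the others, with replicate 1 the highest, and the 5 h and 0 h libraries overlapped. It was higher at 12 h than at 0 h (log2 fold change 1.05 ± 0.21, adjusted p = 0.000263) and than at 5 h (log2 fold change 0.77 ± 0.21, adjusted p = 0.0064). RAB32, its nearest relative in function, had no count in any library.

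RAB12, which moves transferrin receptors to lysosomes, was higher at both times (log2 fold change 0.56 and 0.64, adjusted p = 0.000294 and 8.01e-05). RAB29, which recruits LRRK2 to membranes, was lower at 12 h, at 19.96 ± 1.64 CPM against 27.6 ± 2.08 CPM at 0 h (log2 fold change -0.46, adjusted p = 0.00953). RAB24, linked to autophagy, was higher at 12 h than at 0 h (0.67, adjusted p = 0.00193). It shares 44.8% of its exon bases with MXD3 on the same strand, so the reads of the 2 genes cannot be cleanly separated. MXD3 was at 24.4, 26.7 and 21.6 CPM at 12 h against 13.6, 21.4 and 21.1 CPM at 0 h (0.38, adjusted p = 0.0557). At 12 h against 5 h MXD3 was higher by 1.37 (adjusted p = 8.35e-06) and RAB24 by 0.51 (adjusted p = 0.0187), so the overlap bears on that call too.

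Of the Rab genes of the endoplasmic reticulum and Golgi, 12 were tested. At 5 h 2 were higher and 2 lower than at 0 h, at 12 h 5 were higher and 2 lower, and at 12 h against 5 h 3 were higher and 1 lower. The shares called were 33.3%, 58.3% and 33.3%, beside 49.7%, 51.1% and 36.1% of all genes. RAB30, a Golgi Rab, was the member that rose most at 5 h. It was at 8.31, 6.88 and 9.76 CPM at 0 h, 26.2, 27.8 and 31.3 CPM at 5 h and 26.8, 26.1 and 26.9 CPM at 12 h. Every activated library lay above every library at 0 h, and the activated groups overlapped each other. It was 3.39-fold higher at 5 h (log2 fold change 1.76 ± 0.15, adjusted p = 3.33e-09) and 3.17-fold higher at 12 h (log2 fold change 1.66 ± 0.15, adjusted p = 1.1e-08) than at 0 h.

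RAB33A, a Golgi Rab found mainly in brain and lymphoid cells, changed late. It had 14, 12 and 23 counts at 0 h, 14, 14 and 12 at 5 h and 38, 82 and 54 at 12 h, which is 1.79, 1.79 and 2.81 CPM at 0 h, 2.1, 1.89 and 1.88 CPM at 5 h and 9.27, 8.94 and 7.996 CPM at 12 h. All 12 h libraries lay above all others, and 5 h and 0 h overlapped. It was 4.03-fold higher at 12 h than at 0 h (log2 fold change 2.01 ± 0.26, adjusted p = 2.6e-06) and 4.42-fold higher than at 5 h (log2 fold change 2.14 ± 0.27, adjusted p = 5.64e-06), while 5 h against 0 h did not pass (log2 fold change -0.13). RAB33B, which binds the autophagy protein ATG16L1, was likewise higher at 12 h only, by 0.40 ± 0.14 against 0 h (adjusted p = 0.0195) and 0.53 ± 0.14 against 5 h (adjusted p = 0.00561). The call of RAB33B against 0 h was lost without replicate 2 at 0 h or replicate 3 at 12 h (adjusted p 0.0512 to 0.107).

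RAB43, a Rab of transport within the Golgi, was at 42.3, 64.6 and 29.2 CPM at 0 h, 58.5, 63.8 and 46.8 CPM at 5 h and 72.2, 111 and 106 CPM at 12 h. The 0 h libraries spread widely, and all 12 h libraries lay above them. It was higher at 12 h than at 0 h (log2 fold change 1.12 ± 0.20, adjusted p = 7.84e-05) and than at 5 h (log2 fold change 0.79 ± 0.19, adjusted p = 0.00346). At 5 h against 0 h it did not pass (log2 fold change 0.33, adjusted p = 0.182), but it did without replicate 2 at 0 h (adjusted p = 0.00589) and with no filter on low counts (adjusted p = 0.0144). The readthrough gene ISY1-RAB43 shares 79.3% of its exon bases and was at 50.5, 16.6 and 61.2 CPM at 0 h, so that it was low in replicate 2, where RAB43 was high, and high in replicate 3, where RAB43 was low. The 2 genes summed to 92.8, 81.2 and 90.4 CPM at 0 h, 87.1, 107 and 97.1 CPM at 5 h and 124, 155 and 155 CPM at 12 h. All sums at 12 h lay above those at 0 h and 5 h.

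RAB1B, which with RAB1A directs transport from the endoplasmic reticulum to the Golgi, was at 146, 129 and 136 CPM at 0 h, 91.1, 104 and 103 CPM at 5 h and 85.9, 126 and 116 CPM at 12 h. Both activated groups lay below 0 h. RAB1B was lower at 5 h (log2 fold change -0.46 ± 0.11, adjusted p = 0.00187) and at 12 h (log2 fold change -0.31 ± 0.11, adjusted p = 0.025). The call at 12 h was lost without replicate 1 or 3 at 0 h or replicate 1 at 12 h (adjusted p 0.0509 to 0.121). At 12 h against 5 h RAB1B did not pass but did without replicate 1 at 12 h (adjusted p = 0.0277). Genes on the opposite strand, AP001107.2 and AP001107.1, share 29.3% and 13.2% of its exon bases, so these counts are uncertain. RAB1A did not pass in any comparison. CEP68, on the opposite strand, shares 22.9% of the exon bases of RAB1A, so the counts of RAB1A are uncertain too. CEP68 was lower at 5 h than at 0 h (-0.52, adjusted p = 0.00188) and higher at 12 h than at 5 h (0.64, adjusted p = 0.000566).

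RAB6B, a neuronal relative of the retrograde Golgi Rab RAB6A, was lower at 5 h (-0.69, adjusted p = 0.0157) and 12 h (-0.83, adjusted p = 0.00541), and RAB6A did not pass, except at 12 h against 0 h without replicate 3 at 0 h (adjusted p = 0.032) and with upper-quartile scaling (adjusted p = 0.0285). The call of RAB6B at 5 h was lost without replicate 3 at 0 h or replicate 3 at 5 h (adjusted p 0.0512 to 0.0569). RAB2B, of the Golgi and autophagosomes, was higher at 5 h only, at 62.7 ± 3.29 CPM against 44.3 ± 1.66 CPM at 0 h (SD, n = 3 each; log2 fold change 0.50 ± 0.10, adjusted p = 0.000242). RAB39B was higher at 12 h than at 0 h (0.38, adjusted p = 0.0299), a call that ended with DESeq2 (adjusted p = 0.0621), limma (0.0537) and upper-quartile scaling (0.0667), and without replicate 2 or 3 of either group (adjusted p 0.0858 to 0.125).

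**Figure D4:**
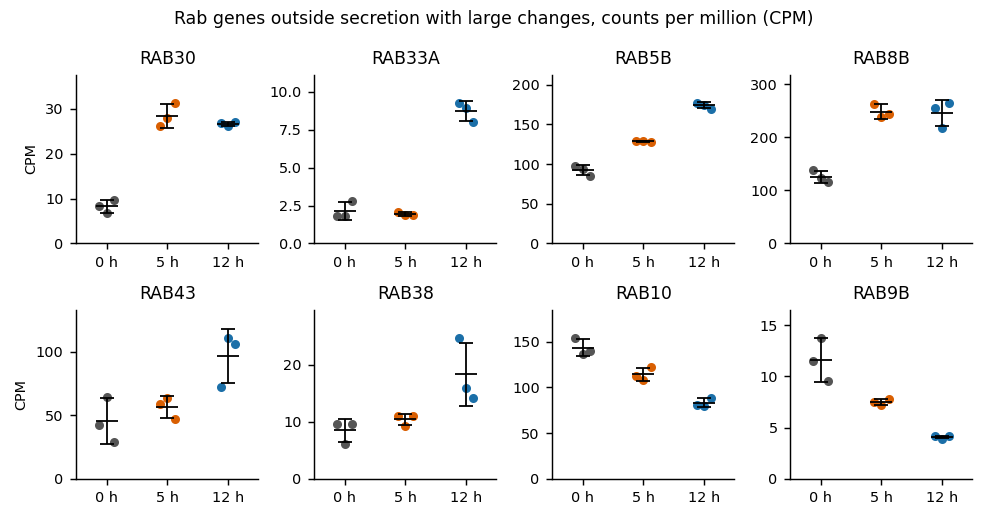
CPM of 8 Rab genes outside regulated secretion that are described in the text, at 0, 5 and 12 h; points are libraries, the long bar is the mean and the whiskers are the SD (n = 3). RAB30 and RAB8B were higher at both times, RAB33A, RAB43 and RAB38 at 12 h, RAB5B at each step, and RAB10 and RAB9B were lower at each step.

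On the early endosome, 5 Rab genes were tested, and at 5 h 3 were higher and none lower than at 0 h. At 12 h 1 was higher and 1 lower (60% and 40% called, beside 49.7% and 51.1% of all genes). RAB5B, which with RAB5A and RAB5C drives fusion of early endosomes, was at 97.9, 93.7 and 85.5 CPM at 0 h, 129, 129 and 127 CPM at 5 h and 177, 174 and 169.7 CPM at 12 h. The 3 groups did not overlap, and RAB5B was the only member higher in all 3 comparisons. The change was 0.48 ± 0.08 at 5 h (adjusted p = 9.57e-05) and 0.91 ± 0.08 at 12 h (adjusted p = 1.98e-08) against 0 h, and 0.44 ± 0.08 at 12 h against 5 h (adjusted p = 0.000428).

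The other 2 RAB5 genes did less. RAB5A averaged 47.9 ± 1.2 CPM at 5 h and 38.7 ± 4.85 CPM at 0 h (SD, n = 3 each; log2 fold change 0.31 ± 0.11, adjusted p = 0.0245), a call lost without replicate 3 at 0 h or replicate 1 or 3 at 5 h (adjusted p 0.0624 to 0.151) and with upper-quartile scaling (adjusted p = 0.0949). At 12 h against 0 h RAB5A did not pass (log2 fold change 0.25, adjusted p = 0.0667) but did without replicate 1 at 0 h (adjusted p = 0.0304). RAB5C did not pass in any comparison (log2 fold change -0.06 at 5 h and -0.08 at 12 h). AC099811.2, a protein-coding gene on the same strand, shares 28.8% of the exon bases of RAB5C, so these counts are uncertain. Per kb of exon, RAB5C was at 30.4, RAB5B at 14.02 and RAB5A at 10.2 CPM at 0 h, and at 12 h they were at 28.6, 26.4 and 12.1 CPM.

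RAB22A was higher at 5 h than at 0 h (0.39, adjusted p = 0.00174) and lower at 12 h than at 5 h (-0.39, adjusted p = 0.00286), with the 12 h and 0 h libraries overlapping. RAB21, which binds integrins, was lower at 12 h than at 5 h (-0.40, adjusted p = 0.00852) and than at 0 h (-0.28, adjusted p = 0.0407). The call against 0 h was lost without replicate 1 or 2 of either group (adjusted p 0.069 to 0.227), and that against 5 h without replicate 2 at 12 h or replicate 3 at 5 h (adjusted p 0.0544 to 0.0561).

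Of the remaining tested members, RAB40C, a SOCS-box Rab of a ubiquitin ligase, was the only member called in opposite directions at the 2 times. It was at 12.5, 18.8 and 17.6 CPM at 0 h, 10.4, 11.5 and 14.4 CPM at 5 h and 19.03, 22.03 and 22.8 CPM at 12 h. The 12 h libraries lay above all others, and the 5 h and 0 h libraries overlapped. The higher level at 12 h than at 5 h was 0.83 ± 0.17 (adjusted p = 0.000804). The calls against 0 h, -0.43 at 5 h (adjusted p = 0.0434) and 0.40 at 12 h (adjusted p = 0.0444), both ended with DESeq2 (adjusted p = 0.0653 and 0.0771) and with limma (adjusted p = 0.055 and 0.0639), and that at 12 h with upper-quartile scaling (adjusted p = 0.0923). They also ended without replicate 2 or 3 at 0 h or replicate 1 or 2 at 5 h (5 h; adjusted p 0.106 to 0.166) and without replicate 1 or 3 at 0 h, replicate 2 at 5 h or replicate 2 or 3 at 12 h (12 h; adjusted p 0.0503 to 0.225). RAB23 and RAB28, both linked to cilia, and RAB40B did not pass; RAB40B did so at 12 h against 0 h without replicate 1 at 0 h (adjusted p = 0.0486). RAB23 shares 57.7% of its exon bases with BAG2 on the opposite strand.

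Across members, the order of levels per length put RAB7A first (67.1 CPM per kb over the 9 libraries), then RAB1B (57.4), RAB11B (41.9), RAB8B (39.8) and RAB10 (31.3). At 0 h RAB1B and RAB7A were close (68.2 and 65.4 CPM per kb), and RAB8B stood at 24.1. At 12 h RAB8B stood at 47.3 and RAB10 at 22.9 CPM per kb. Of the secretory Rab genes RAB27A, at 5.4 CPM per kb, was highest over the 9 libraries and ranked 27 of 63, but at 0 h RAB37 (8.82) and RAB3D (4.91) were above RAB27A (4.07 CPM per kb).

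The 17 untested members were at or near 0. RAB32, RAB3C and RAB39A had no count, and RAB13, the most abundant, had 12, 7 and 10 counts at 0 h, 6, 2 and 8 at 5 h and 11, 13 and 8 at 12 h. RAB6C and RAB6D, whose coding sequences are identical at 99.5% of aligned bases, had few counts that may be split between them. RAB7B, a Rab of transport between lysosome and Golgi, had 0, 0 and 0 counts at 0 h, 5, 9 and 2 at 5 h and 0, 1 and 4 at 12 h. Against the 3 counts that a sum of 0 allows over the 0 h group (0.132 CPM), its pooled 5 h level (0.783 CPM) was 5.93-fold higher. The 12 h and 0 h libraries overlapped, and no fold is given for 12 h. This floor covers counting error at 0 h only. The counting error of the 16 counts at 5 h and the spread between libraries are not included, and the gene was outside the test.

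The proteins that load, switch and read Rab proteins were counted from lists drawn up with earlier results of these data known. Of 53 tested GEFs and GEF subunits, 13 were higher and 10 lower at 5 h than at 0 h, and 16 were higher and 11 lower at 12 h, a share of 43.4% and 50.9% called beside 49.7% and 51.1% of all genes. DENND4A, a GEF for RAB10, averaged 97.1 ± 14.9 CPM at 5 h and 65.5 ± 3.39 CPM at 12 h, against 36.8 ± 2.68 CPM at 0 h (log2 fold change 1.40, adjusted p = 1.79e-09, and 0.83, adjusted p = 4.69e-06). DENND5A was also higher at both times (0.95 and 0.87). DENND2B (-1.49 and -1.30) and DENND10, a GEF linked to RAB27 proteins (-1.04 and -0.79), were lower. C9orf72, part of a complex with SMCR8, averaged 37.4 ± 7.71 CPM at 12 h against 19.05 ± 1.33 CPM at 0 h (log2 fold change 0.95 ± 0.14, adjusted p = 1.39e-05). DENND3, a GEF for RAB12, was lower at 5 h (-0.85, adjusted p = 5.73e-06) and higher at 12 h than at 5 h (0.99, adjusted p = 3.21e-06).

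Of 36 tested TBC-domain GAPs, 13 were higher and 10 lower at 5 h (63.9% called, beside 49.7% of all genes), and 14 were higher and 6 lower at 12 h (55.6%, beside 51.1%). TBC1D4, also called AS160, a GAP for RAB10 in insulin-responsive cells, was at 106, 115 and 113 CPM at 0 h, 345, 321 and 304 CPM at 5 h and 304, 273 and 302 CPM at 12 h. Both activated groups lay above 0 h (log2 fold change 1.53 ± 0.09, adjusted p = 9.2e-12 at 5 h; log2 fold change 1.39 ± 0.09, adjusted p = 7.34e-11 at 12 h). TBC1D16 was lower at both times (-1.17 and -1.56, adjusted p = 5.69e-07 and 1.96e-08). TBC1D20, a GAP for RAB1, and TBC1D22B were higher at both times and highest at 5 h (0.89 and 1.02 at 5 h). TBC1D2B and TBC1D17 were higher at 12 h only (1.02 and 1.00). TBC1D10C, also known as carabin, an inhibitor of calcineurin in T cells, was lower at 5 h (-0.74, adjusted p = 7.42e-05).

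Of 9 tested genes for escort, recycling, prenylation and phosphorylation of Rab proteins, 1 was higher and 3 lower at 5 h, and 3 were higher and 3 lower at 12 h (44.4% and 66.7% called, beside 49.7% and 51.1% of all genes). RABGGTB, the catalytic subunit of the transferase that attaches the lipid anchor, was higher at both times (0.79 and 0.63, adjusted p = 2.17e-06 and 3.41e-05). PPM1H, the phosphatase that removes LRRK2 phosphorylation from Rab proteins, averaged 17.8 ± 2.16 CPM at 5 h and 32.05 ± 2.88 CPM at 12 h, against 61.1 ± 3.49 CPM at 0 h (log2 fold change -1.78 ± 0.12, adjusted p = 1.43e-10 at 5 h; log2 fold change -0.93 ± 0.11, adjusted p = 1.08e-06 at 12 h). The Rab escort gene CHML (-0.44, adjusted p = 0.00143) and RABAC1 (-0.65, adjusted p = 0.000397) were lower at 5 h.

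Of 50 tested effectors, 15 were higher and 10 lower at 5 h, and 16 were higher and 9 lower at 12 h, 50% called at each time, beside 49.7% and 51.1% of all genes. SYTL3, an effector of RAB27 proteins in granule docking, had 1, 2 and 2 counts at 0 h, 38, 43 and 51 at 5 h and 10, 38 and 31 at 12 h. All activated libraries lay above all at 0 h. Over pooled counts it was 26.99-fold higher at 5 h than at 0 h (95% exact interval for counting error 11.3 to 84.5) and 16.6-fold higher at 12 h (6.84 to 52.7). SYTL3 passed the filter on low counts only through the activated libraries, where it was high, so no p is given for it. The counts of effectors called higher above include SYTL3. RBSN, an effector of RAB4 and RAB5, was higher at each step (0.53 at 5 h and 0.93 at 12 h against 0 h, adjusted p = 0.00029 and 2.78e-07). CRACR2A, a calcium-binding regulator of calcium entry in T cells whose long form is itself a Rab GTPase, was lower at 5 h (-0.79, adjusted p = 0.000114). MICALL2 was lower at 12 h (-1.78, adjusted p = 0.00197).

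Of the 7 Rab-like genes outside the symbol rule, 1 was higher and 2 lower at 5 h, and 1 was higher and 3 lower at 12 h (42.9% and 57.1% called, beside 49.7% and 51.1% of all genes). RABL6 was lower at both times (-0.78 and -0.47, adjusted p = 4.8e-06 and 0.0011), and RASEF, a Rab with EF-hands, was higher at 12 h (0.69, adjusted p = 0.000657). Without replicate 3 at 0 h or replicate 1 at 5 h, 1 Rab-like gene was called at 5 h. In the transition from 5 h to 12 h, 7 GEFs, 8 GAPs, 3 escort and prenylation genes, 6 effectors and 2 Rab-like genes were higher at 12 h, and 6, 3, 2, 6 and 2 were lower. The shares called ran from 24% for the effectors to 57.1% for the Rab-like genes, beside 36.1% of all genes. Without replicate 1 or 3 at 5 h 1 escort and prenylation gene was called in either direction, without replicate 2 at 12 h 2 were, and without replicate 2 or 3 at 5 h the effectors called numbered 5 or 7.

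**Figure D5:**
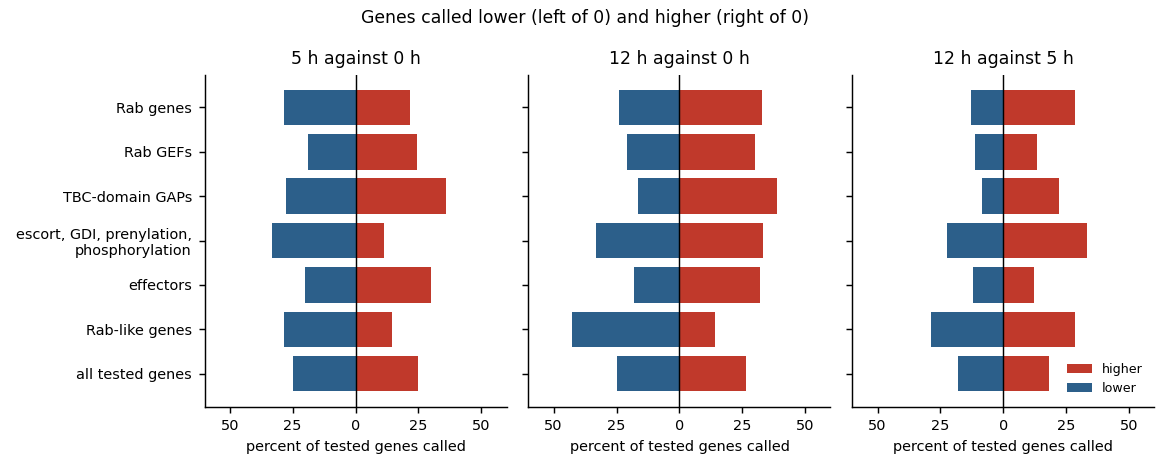
Percent of tested genes called higher (right of 0) or lower (left of 0) in each of the 3 comparisons, for the Rab genes, 5 lists of related genes and all 12036 tested genes. The Rab bars at 5 h against 0 h stand for 10 genes higher and 13 lower of 46, and the bars of all tested genes for 24.9% and 24.8%.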

How the data were processed

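The 9 libraries, 3 each at 0, 5 and 12 h, hold mRNA of Jurkat Clone E6-1 cells. The authors deposited whole-number counts per Ensembl gene that show no normalization, and a table of log2 values that lists only the 12692 genes with a count in every library. Names in the submitters' processing notes are cutadapt, RSEM, DESeq2 and GRCh38.p13, and the notes give neither their order nor their versions. Because RSEM estimates counts, the whole numbers may have been rounded. The strand setting, aligner and annotation release were not given in the sources used here.

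Symbols came from a gene table, which matched 19543 of the 19569 IDs and gave 63 members; 49 of them also carry a symbol in the deposited log2 table. Counts were tested with edgeR 4.0.16 (R 4.3.3) in a quasi-likelihood fit of all 9 libraries with TMM scaling and the filterByExpr filter (minimum count 10, minimum total 15), which left 12036 genes with a common biological coefficient of variation of 0.0887. The threshold was an adjusted p of 0.05 after Benjamini and Hochberg, and SE are on the log2 scale. The procedure was tested on simulated data for 5 h against 0 h over 12036 genes: among 50 genes of each size it found 76% at 1.5-fold, 86% at 2-fold and 80% at 0.5-fold, and it made 10 false calls. For 12 h against 0 h it found 66%, 92% and 82%, and it made 20 false calls. At 4-fold it found 100% in both. Each simulation changed only 200 genes, a far smaller part than was called in the data. Recovery and false calls may therefore differ in the data. Replicates differed by more than sampling noise (chi-square per degree of freedom 2.87 to 8.92), so each library counted once.

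Described in full were, in each comparison, the 8 members with the largest change among those called at 1 CPM or more, the 5 members with the highest mean CPM, and members of a subfamily called in both directions; other members are given in short, and from each list of related genes up to 4 with the largest change in a comparison could be named. The members and lists were chosen with earlier results of these data known. Alternatives were DESeq2 1.42.0, limma 3.58.1 on the log2 values, other scalings, no filter, a fit of 2 groups, a replicate block, and leaving out each library; counts of the secretory members were added after seeing the data. Coordinates and exon lengths are from GENCODE 29, coding sequences were aligned with Biopython 1.88, and promoters are RefSeq's.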

Additional observations from a re-analysis of the deposited data

Results flagged for a closer look

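The level differed between the 12 h and 5 h groups, tested as the contrast of the 2 activated groups in edgeR's quasi-likelihood fit, for 19 Rab genes. On the log2 scale, 12 h over 5 h, it was higher at 12 h for RAB33A (2.14), RAB27B (1.29), RAB3A (1.09), RAB26 (1.08), RAB37 (1.07), RAB3D (0.98), RAB40C (0.83), RAB43 (0.79), RAB38 (0.77), RAB33B (0.53), RAB24 (0.51), RAB5B (0.44) and RAB11B (0.35). It was lower at 12 h for RAB9B (-0.88), RAB10 (-0.46), RAB29 (-0.40), RAB21 (-0.40), RAB22A (-0.39) and RAB2B (-0.35). The groups at 12 h and 5 h overlapped for RAB11B and RAB24. The call of RAB29 ended without any 1 of the 12 h libraries or replicate 1 or 3 at 5 h (adjusted p 0.0553 to 0.175), that of RAB11B without replicate 2 or 3 at 12 h or replicate 1 or 2 at 5 h (0.0554 to 0.16), that of RAB24 without replicate 2 or 3 at 12 h or replicate 1 at 5 h (0.0658 to 0.11), and that of RAB2B without replicate 2 at 12 h (0.051). Those of RAB3A, RAB21, RAB26 and RAB27B also ended without single libraries, as given with each gene. The tests of RAB3A, RAB26 and RAB27B against the 5 h group were not independent of the filter on low counts. RAB7B, outside the test for its low level, had 16 counts summed over the 5 h libraries and none at 0 h, above the 3 counts that a count of 0 allows.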

How the results depend on the processing

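No called member changed direction under any alternative run. Of 68 member calls in the 3 comparisons 47 held under every alternative, and 9 of 70 uncalled results were called under at least 1. Counts of called members stayed within 1.5 times of those reported, except when a library was left out. The median log2 fold change of the members was -0.125 at 5 h and -0.0756 at 12 h against 0 h with upper-quartile scaling. Leaving out each library gave medians of -0.102 to 0.028 at 5 h and -0.0755 to 0.0561 at 12 h against 0 h, and -0.0259 to 0.0639 at 12 h against 5 h. At 12 h against 5 h it gave 8 to 14 members higher, 2 to 5 secretory members higher, 1 to 6 escort and prenylation genes called and 5 to 12 effectors called, and at 5 h against 0 h 4 to 6 secretory members lower and 1 to 3 Rab-like genes called. Fewer libraries entered these fits; the cause of the other shifts was not tested. Same-numbered libraries did not clearly deviate together (correlations of deviations from the group means -0.143 to 0.163), and differently numbered ones spanned -0.200 to 0.187. With 3 libraries per group this cannot show whether the numbers pair the libraries. With the replicate block 23, 26 and 19 members were called at 5 h against 0 h, 12 h against 0 h and 12 h against 5 h, the same counts as without it. At 12 h against 5 h, however, RAB26 was no longer called and RAB4B was (adjusted p = 0.0275). The shallowest library held 4222258 counts, which limits members with few counts such as RAB26, RAB27B and RAB33A, and an overlapping gene covers 19.6% to 79.3% of the exon bases of the called members RAB43, RAB24, RAB8A, RAB1B, RAB4B, RAB3D and RAB4A.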
